A study of Mus musculus with 3 samples.

Results

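B precursors that transcribe the surrogate light chain were taken from 3 single-cell libraries of mouse bone marrow. Members were chosen by their own counts: a cell was one when it held at least 4 unique molecular identifiers (UMIs, each a counted transcript) of Igll1 and Vpreb1 together, at least 1 of Cd79a and Cd79b together and at most 1 of Siglech, a plasmacytoid dendritic cell gene. Cells were kept when they had 500 UMIs or more, 300 detected genes or more and no more than 10% of UMIs from mitochondrial genes. Of the 26415 cells kept, 3254 were members. All 3 libraries were 10x Genomics 3 prime (version 2) libraries from bone marrow of C57BL/6 mice, enriched for cells that carry the receptor Kit. The groups are marrow challenged with E. coli 2 times, labelled 48 h and called 2-challenge marrow here, marrow challenged 1 time, labelled 24 h and called 1-challenge marrow, and Unchallenged, which is marrow at steady state. Each group was 1 library, so every difference below lies between single libraries, without a replicate check or a test. Challenge number and time change together, and the labels do not say whether animals were pooled or from which moment the hours were counted. GEO's source field calls the material neutrophils, whereas another field gives the Kit enrichment.

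Surrogate light chain stands in for the immunoglobulin light chain before a light chain gene has been rearranged. Vpreb1 or Vpreb2 encodes its variable-like part and Igll1, also called lambda 5, its constant-like part. Together with a newly made mu heavy chain and the signalling chains Cd79a and Cd79b they form the pre-B cell receptor, which tests the heavy chain and starts a burst of division in large pre-B cells. In pro-B cells the recombinase of Rag1 and Rag2 joins heavy chain segments, Dntt adds bases at the joints, and the factors Tcf3 (E2A), Ebf1 and Pax5 turn on the B lineage genes.

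Igll1 lies at chr16:16860671-16863985 and Vpreb1 at chr16:16868403-16870843, both on the minus strand, with 4417 bases between them. Vpreb2 lies on the plus strand at chr16:17980428-17981273 and Vpreb3, a related gene whose product binds the heavy chain, at chr10:75943057-75949657. These are GENCODE M21 positions on GRCm38, the build also called mm10. The sequences below are the parts of the 250 bases before the RefSeq start (GRCm38.p6) that lie outside annotated exons. They are shown because Igll1, Vpreb2, Vpreb3 and Cd79a carry the identity of these cells, and because Rag1 differed most between libraries among the recombination genes. Capitals mark CAGGTG, the E-box letters bound by E2A, or its reverse complement. The Igll1 sequence is chr16:16863986-16864235 (minus strand), that of Vpreb2 is chr16:17980315-17980427 (plus), that of Vpreb3 is chr10:75948050-75948299 (plus), that of Cd79a is chr7:24897247-24897380 (plus) and that of Rag1 is chr2:101649533-101649782 (minus).
Igll1: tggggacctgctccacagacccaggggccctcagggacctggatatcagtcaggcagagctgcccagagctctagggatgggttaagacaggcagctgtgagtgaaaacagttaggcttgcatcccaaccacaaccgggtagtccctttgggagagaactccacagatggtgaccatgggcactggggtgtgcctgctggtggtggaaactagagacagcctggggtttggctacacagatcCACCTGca
Vpreb2: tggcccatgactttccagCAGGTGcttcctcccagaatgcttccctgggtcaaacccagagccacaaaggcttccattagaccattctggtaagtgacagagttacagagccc
Vpreb3: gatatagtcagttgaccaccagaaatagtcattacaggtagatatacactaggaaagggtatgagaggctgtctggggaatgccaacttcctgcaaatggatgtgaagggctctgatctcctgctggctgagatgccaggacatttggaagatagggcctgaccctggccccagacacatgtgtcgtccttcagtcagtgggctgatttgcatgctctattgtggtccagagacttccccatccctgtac
Cd79a: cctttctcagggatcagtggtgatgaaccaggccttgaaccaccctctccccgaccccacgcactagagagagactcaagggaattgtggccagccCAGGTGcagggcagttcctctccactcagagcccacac
Rag1: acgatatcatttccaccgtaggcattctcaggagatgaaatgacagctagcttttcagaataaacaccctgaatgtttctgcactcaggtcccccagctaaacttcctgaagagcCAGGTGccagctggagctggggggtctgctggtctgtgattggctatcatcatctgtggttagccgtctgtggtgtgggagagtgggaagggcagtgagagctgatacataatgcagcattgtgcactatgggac
The E-box letters stood 8 to 3 bases before the Igll1 start on the opposite strand, and at 232 to 227 bases before that of Vpreb2, 154 to 149 before that of Cd79a and 135 to 130 before that of Rag1 on the same strand. Vpreb1 held them too, 88 bases before its start, in a stretch annotated as an exon and not printed. None stood in the 250 bases of Vpreb3, nor in those of Ebf1, Pax5 and Dntt, which were searched as well and are not printed. Both strands were searched, and 17.2% of 32851 promoters of that length held the letters. The letters CCCNNGGG, the core bound by Ebf1, stood once, 231 bases before the Igll1 start, against 11.8% of promoters, and overlapped no other match. The windows of Vpreb1 and Vpreb2 shared an unbroken run of 91 bases, and 98.1% of 106 aligned bases were identical. The E-box letters of both genes lay inside that run, so they are not separate finds. The transcripts are alike as well: of all 31-base words in the last 300 bases, 35.1% of those of Vpreb1 occurred in Vpreb2 and 28.1% of those of Vpreb2 in Vpreb1, so reads of the pair may be split between them.

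Members numbered 363 of 8542 kept cells in 2-challenge marrow, 1573 of 8650 in 1-challenge marrow and 1318 of 9223 in Unchallenged. As shares these were 4.25% (exact Clopper-Pearson 95% interval 3.83 to 4.70%) in 2-challenge marrow, 18.2% (17.4 to 19.0%) in 1-challenge marrow and 14.3% (13.6 to 15.0%) in Unchallenged. Here and below such intervals, and the exact Poisson intervals of levels, cover counting error only. The share in 2-challenge marrow was thus the lowest of the 3, and the intervals did not overlap. A share also depends on the other cells in the library. Neutrophil lineage cells filled much of the marrow, and among cells with at most 5% of their UMIs in 12 neutrophil granule genes the members were 6.36% (5.74 to 7.04%) in 2-challenge marrow, 23.4% (22.4 to 24.5%) in 1-challenge marrow and 27.7% (26.3 to 29.1%) in Unchallenged. The order of 1-challenge marrow and Unchallenged therefore turned with the denominator, while 2-challenge marrow stayed lowest.

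Depth differed between the libraries as well. Members held a median of 1728 UMIs and 817 genes in 2-challenge marrow, 3020 UMIs and 1335 genes in 1-challenge marrow and 4107.5 UMIs and 1647.5 genes in Unchallenged. Other kept cells had medians of 10804 UMIs in 2-challenge marrow, 16569 in 1-challenge marrow and 12069 in Unchallenged, so the members were the shallower cells everywhere. The median mitochondrial share of members was 4.44% in 2-challenge marrow, 2.43% in 1-challenge marrow and 2.46% in Unchallenged. In other cells it was 4.07% in 2-challenge marrow, 2.63% in 1-challenge marrow and 1.74% in Unchallenged. The 3 count tables held 95522747 UMIs in 2-challenge marrow, 135079828 in 1-challenge marrow and 119646078 in Unchallenged. When each kept cell was thinned to 2000 UMIs, shallower cells left out, members were 1.05% in 2-challenge marrow, 13.1% in 1-challenge marrow and 10.9% in Unchallenged. Of the 363 members of 2-challenge marrow, 206 held fewer than 2000 UMIs.

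**Figure D1:**
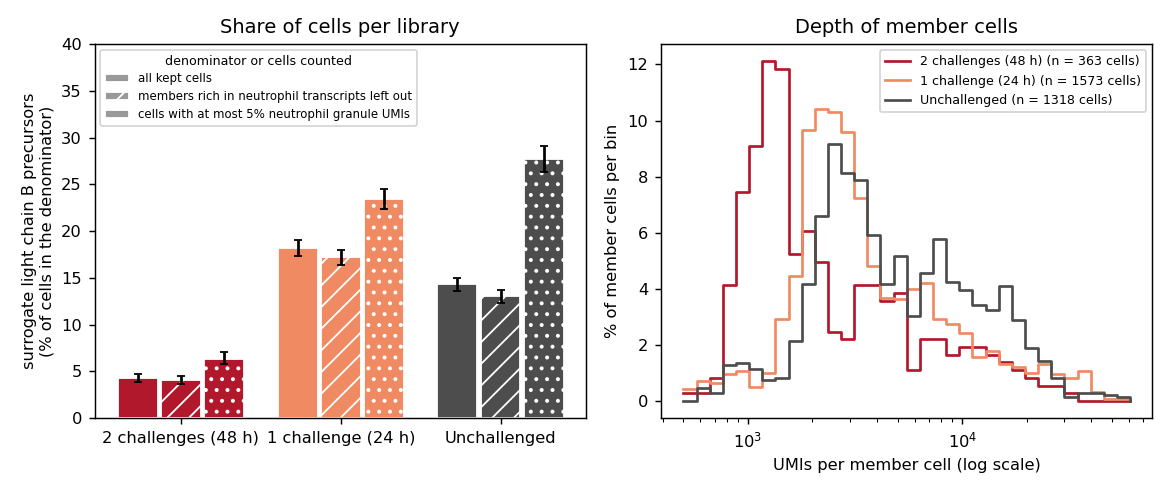
Left, percent of cells that were surrogate light chain B precursors in each library (bars from 0, exact 95% intervals), over all kept cells (plain), with neutrophil-rich members left out (hatched) and among cells with at most 5% neutrophil granule UMIs (dotted); right, UMIs per member cell on a log axis, as percent of the members of each library. The share over all kept cells was 4.25% in 2-challenge marrow, 18.2% in 1-challenge marrow and 14.3% in Unchallenged, and the members of 2-challenge marrow peaked at the lowest depth.

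The counts that define membership lay nearer their limits in 2-challenge marrow than in the other libraries. The median member held 8 Igll1 and Vpreb1 UMIs in 2-challenge marrow, 21 in 1-challenge marrow and 24 in Unchallenged. Just inside the limit, cells with 4 such UMIs numbered 19 in 2-challenge marrow, 19 in 1-challenge marrow and 12 in Unchallenged. Cells with 5 numbered 42 in 2-challenge marrow, 29 in 1-challenge marrow and 19 in Unchallenged. Just outside, cells with 3 numbered 22 in 2-challenge marrow, 27 in 1-challenge marrow and 28 in Unchallenged. Of the cells with 3, 90.9% in 2-challenge marrow, 70.4% in 1-challenge marrow and 60.7% in Unchallenged also held Vpreb3. With at least 4 surrogate chain UMIs, 15 cells in 2-challenge marrow, 4 in 1-challenge marrow and 6 in Unchallenged were left out for having no Cd79a or Cd79b UMI. Members with exactly 1 such UMI numbered 39 in 2-challenge marrow, 19 in 1-challenge marrow and 11 in Unchallenged. The Siglech limit removed no cell, and 1 member, in Unchallenged, held a Siglech UMI.

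The label was checked against markers that the rule did not use. Vpreb3 was found in 99.7% of members in 2-challenge marrow, 99.7% in 1-challenge marrow and 99.5% in Unchallenged. Ebf1, the factor that specifies the B lineage, was found in 100% of members in 2-challenge marrow, 99.6% in 1-challenge marrow and 99.8% in Unchallenged. The floor for these shares was read in neutrophils with at least 5 Retnlg UMIs. Free RNA in the droplets and droplets that also held a B precursor were not told apart there. Vpreb3 was seen in 0.37% of these neutrophils in 2-challenge marrow, 7.17% in 1-challenge marrow and 12.6% in Unchallenged. Ebf1 was seen in 0.247% in 2-challenge marrow, 3.04% in 1-challenge marrow and 6.46% in Unchallenged. Those neutrophils had median depths of 3618 UMIs in 2-challenge marrow, 3116 in 1-challenge marrow and 5505.5 in Unchallenged, each above that of the members of the library. The markers thus stood far above this floor. Genes of later B cells differed among themselves. The list of 15 summed to 747 CPM in 2-challenge marrow, 1081 in 1-challenge marrow and 2273 in Unchallenged, where 1 cell held 10302 UMIs of the list. The median member held 1 such UMI in 2-challenge marrow, 5 in 1-challenge marrow and 6 in Unchallenged. Of these genes, Ms4a1 (CD20) was seen in 3 of 363 members in 2-challenge marrow, 4 of 1573 in 1-challenge marrow and 8 of 1318 in Unchallenged, and Il2ra (CD25), which marks small pre-B cells, in 0 members of 2-challenge marrow, which allows a share of cells with a UMI of up to 0.826%, in 6 of 1-challenge marrow and in 6 of Unchallenged.

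Transcripts of other cells were present in some members. The 12 neutrophil granule genes made up 2.37% of member UMIs in 2-challenge marrow, 2.18% in 1-challenge marrow and 5.92% in Unchallenged. The median member held 10 such UMIs in 2-challenge marrow, 17 in 1-challenge marrow and 98 in Unchallenged. Members with over 300 such UMIs, a limit chosen after seeing the data, numbered 15 in 2-challenge marrow, 87 in 1-challenge marrow and 118 in Unchallenged. They held 16.8% of the member UMIs in 2-challenge marrow, 21.3% in 1-challenge marrow and 24.1% in Unchallenged. Their median depths were 13455 UMIs in 2-challenge marrow, 23077 in 1-challenge marrow and 16824 in Unchallenged. The doublet caller Scrublet marked 6 of these 15 cells in 2-challenge marrow, 54 of 87 in 1-challenge marrow and 102 of 118 in Unchallenged, and they are called neutrophil-rich members below. Without them the member share was 4.07% in 2-challenge marrow, 17.2% in 1-challenge marrow and 13.01% in Unchallenged. T cell receptor genes were near 0, with Cd3e at 0 UMIs in 2-challenge marrow and 1-challenge marrow and in 1 member of Unchallenged. Library pairs shared 103 to 125 cell barcodes, of which 0 to 3 were members in both libraries of a pair.

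For levels, UMIs were summed over the members of a library and given as counts per 1000000 UMIs (CPM). Genes with 100 UMIs or more in the 2 libraries of a comparison were tested for size: 10 CPM was added to each level, the log2 ratio taken, and a gene counted as higher or lower when it passed 1.5-fold. In 1-challenge marrow over Unchallenged 91 of 8707 genes were higher (1.05%) and 66 lower (0.758%). In 2-challenge marrow over Unchallenged 333 of 7337 genes were higher (4.54%) and 885 lower (12.1%), or 457 and 662 when scaled by the median of gene ratios. In 2-challenge marrow over 1-challenge marrow 294 of 7369 genes were higher (3.99%) and 991 lower (13.4%), or 449 and 675 with that scaling. The members of 1-challenge marrow and Unchallenged were thus close over most genes, and those of 2-challenge marrow stood apart from both. The median log2 ratio over all genes tested was 0.02 for 1-challenge marrow over Unchallenged, -0.13 for 2-challenge marrow over Unchallenged and -0.14 for 2-challenge marrow over 1-challenge marrow. These shares and medians of all genes are the background for the gene lists below. Comparisons with a library in common are not independent. Fewer cells of a stage and less of a transcript per cell cannot be told apart in such sums.

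Among the surrogate light chain genes, Igll1 was the one past 1.5-fold. Igll1 had 1027 CPM (975 to 1082) in 2-challenge marrow, 1755 (1728 to 1783) in 1-challenge marrow and 1716 (1689 to 1743) in Unchallenged. Vpreb1 had 1621 CPM in 2-challenge marrow, 2061 in 1-challenge marrow and 1970 in Unchallenged. These 2 genes chose the members, so their levels are a description. Vpreb3, which the rule did not use, had 2433 CPM in 2-challenge marrow, 3026 in 1-challenge marrow and 2699 in Unchallenged. Vpreb2 had 266 CPM on 367 UMIs in 2-challenge marrow, 215 in 1-challenge marrow and 204 in Unchallenged. With members split at 2000 UMIs, Vpreb2 in 2-challenge marrow was highest of the libraries in shallow members and lowest in deeper ones. Vpreb3 in 2-challenge marrow was below 1-challenge marrow in both classes, and below Unchallenged in the deeper members. In the shallow members the intervals of 2-challenge marrow and Unchallenged overlapped for both genes. In members under 2000 UMIs Vpreb2 had 718 CPM in 2-challenge marrow, 542 in 1-challenge marrow and 602 in Unchallenged, and in deeper members 160 CPM in 2-challenge marrow, 196 in 1-challenge marrow and 194 in Unchallenged. Vpreb3 had 6457 CPM in 2-challenge marrow, 7012 in 1-challenge marrow and 6282 in Unchallenged in members under 2000 UMIs and 1483 CPM in 2-challenge marrow, 2796 in 1-challenge marrow and 2614 in Unchallenged in deeper ones. Igll1 was lowest in 2-challenge marrow in both depth classes, with 2697 CPM in 2-challenge marrow, 4068 in 1-challenge marrow and 4446 in Unchallenged in the shallow and 633 CPM in 2-challenge marrow, 1622 in 1-challenge marrow and 1651 in Unchallenged in the deeper members. The ratio of Igll1 to Vpreb1 UMIs was 0.634 in 2-challenge marrow, 0.852 in 1-challenge marrow and 0.871 in Unchallenged. At an equal 1000 UMIs per cell it was 0.630 in 2-challenge marrow, 0.862 in 1-challenge marrow and 0.844 in Unchallenged. Both genes chose the members, by counts before thinning, so nothing is read from the ratio. At 1000 UMIs a member held a mean of 4.79 Igll1 and Vpreb1 UMIs in 2-challenge marrow (SD over 320 cells 3.57), 6.54 in 1-challenge marrow (SD 4.40, 1513 cells) and 5.77 in Unchallenged (SD 4.24, 1274 cells).

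The signalling partners moved like Igll1. Cd79b had 361 CPM in 2-challenge marrow, 715 in 1-challenge marrow and 629 in Unchallenged. Cd79a had 924 CPM in 2-challenge marrow, 1433 in 1-challenge marrow and 1453 in Unchallenged. Both are genes of the rule, which asked for 1 UMI of the pair. Cd81, a tetraspanin of B cells that the rule did not use, had 102 CPM in 2-challenge marrow, 214 in 1-challenge marrow and 251 in Unchallenged, 2.46-fold lower (2.07 to 2.93) in 2-challenge marrow than in Unchallenged. The mu heavy chain gene Ighm had 1179 CPM in 2-challenge marrow, 1237 in 1-challenge marrow and 1342 in Unchallenged. Of 12 genes of pre-B receptor signalling, 3 were lower and 1, the kinase Blk, higher in 2-challenge marrow over Unchallenged. Of all genes 12.1% were lower and 4.54% higher in that comparison. The median log2 ratio of the list was -0.19, close to the -0.13 for all genes. In 1-challenge marrow over Unchallenged 0 of 12 passed 1.5-fold.

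B lineage transcription factors were higher in 2-challenge marrow for 4 of 18 measured genes over Unchallenged, and lower for 1. Of all genes 4.54% were higher and 12.1% lower in that comparison. Bach2, a repressor active in B cell precursors, had 172 CPM in 2-challenge marrow, 61.9 in 1-challenge marrow and 53.2 in Unchallenged, 3.23-fold higher (2.76 to 3.79) in 2-challenge marrow than in Unchallenged. Myb, needed for early B cell development, had 563 CPM in 2-challenge marrow, 383 in 1-challenge marrow and 334 in Unchallenged. Ikzf1 (Ikaros) had 180 CPM in 2-challenge marrow, 103 in 1-challenge marrow and 107 in Unchallenged. Pax5, which commits cells to the B lineage, had 182 CPM in 2-challenge marrow, 109 in 1-challenge marrow and 119 in Unchallenged, and passed 1.5-fold over 1-challenge marrow and, at a log2 ratio of 0.58, just missed it over Unchallenged. Ebf1 was high everywhere, with 3600 CPM in 2-challenge marrow, 2823 in 1-challenge marrow and 2783 in Unchallenged. In members under 2000 UMIs it had 8740 CPM in 2-challenge marrow, 6392 in 1-challenge marrow and 6426 in Unchallenged, and in deeper ones 2387 CPM in 2-challenge marrow, 2617 in 1-challenge marrow and 2696 in Unchallenged, so 2-challenge marrow was highest in the shallow class and lowest in the deeper one. Tcf3 had 252 CPM in 2-challenge marrow, 296 in 1-challenge marrow and 327 in Unchallenged. Lef1 had 169 CPM in 2-challenge marrow, 221 in 1-challenge marrow and 218 in Unchallenged. Thus the factors did not move as one, and the group's median log2 ratio was 0.03 in 2-challenge marrow over Unchallenged. In 1-challenge marrow over Unchallenged 0 of 18 passed 1.5-fold.

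**Figure D2:**
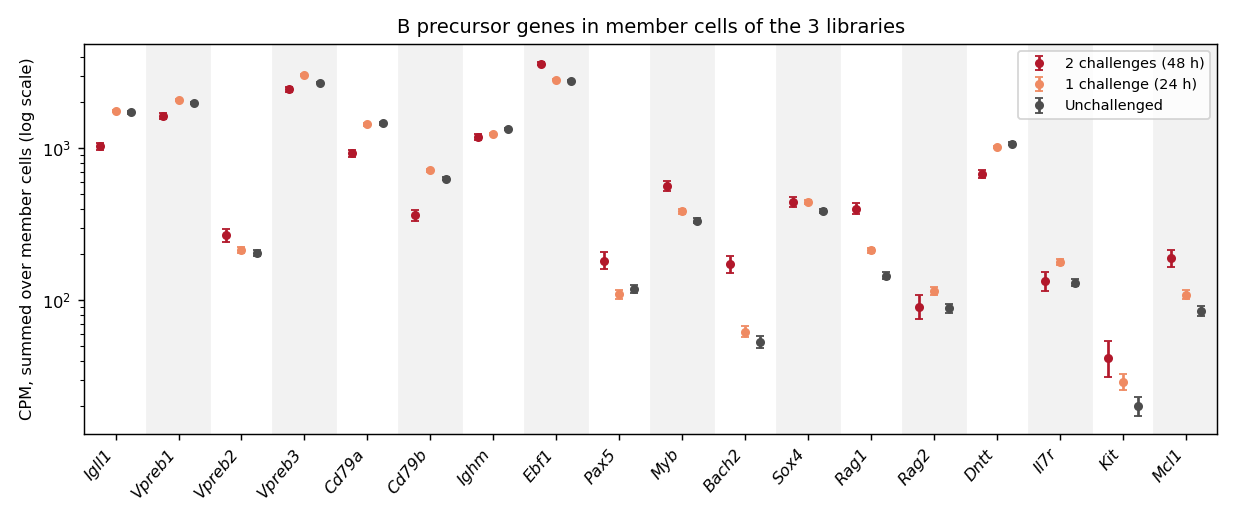
Level of 18 B precursor genes in CPM, summed over the member cells of each library, on a log axis; points are libraries and bars exact Poisson 95% intervals (counting error only). Over all members Igll1, Cd79a, Cd79b and Dntt were lowest in 2-challenge marrow, and Bach2, Myb, Rag1 and Mcl1 highest there. Igll1, Vpreb1, Cd79a and Cd79b are genes of the rule. At 2000 UMIs or more Rag1 had 170 CPM in 2-challenge marrow and 188 in 1-challenge marrow. Under 2000 UMIs Dntt had 1489 CPM in 2-challenge marrow, 1469 in 1-challenge marrow and 1270 in Unchallenged.

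The recombination genes split. Of 7 measured in 2-challenge marrow over Unchallenged, 1 was higher and 2 lower, where 4.54% of all genes were higher and 12.1% lower. In 1-challenge marrow over Unchallenged 0 of 10 passed 1.5-fold. Rag1 had 399 CPM (366 to 434) in 2-challenge marrow, 212 (203 to 222) in 1-challenge marrow and 145 (137 to 153) in Unchallenged. That was 2.75-fold higher (2.49 to 3.04) in 2-challenge marrow than in Unchallenged. Rag2, the other recombinase subunit, had 90.7 CPM in 2-challenge marrow, 115 in 1-challenge marrow and 88.4 in Unchallenged, a smaller difference than that of Rag1 over all members. Dntt had 674 CPM in 2-challenge marrow, 1017 in 1-challenge marrow and 1071 in Unchallenged, 1.59-fold lower (1.49 to 1.70) in 2-challenge marrow than in Unchallenged. These differences varied with the depth of the cells. Among members with fewer than 2000 UMIs, Rag1 had 1367 CPM in the 206 cells of 2-challenge marrow. It had 630 in the 323 of 1-challenge marrow and 476 in the 154 of Unchallenged. Among members with at least 2000 UMIs, Rag1 had 170 CPM in the 157 cells of 2-challenge marrow. It had 188 in the 1250 of 1-challenge marrow and 137 in the 1164 of Unchallenged. When members were thinned to 2000 UMIs, which leaves out the shallow ones, the log2 ratio of Rag1 in 2-challenge marrow over 1-challenge marrow was -0.078, against 0.88 over all members. Rag2 had 239 CPM in 2-challenge marrow, 238 in 1-challenge marrow and 149 in Unchallenged under 2000 UMIs and 55.6 CPM in 2-challenge marrow, 108 in 1-challenge marrow and 86.9 in Unchallenged at 2000 UMIs or more. Dntt had 1489 CPM in 2-challenge marrow, 1469 in 1-challenge marrow and 1270 in Unchallenged under 2000 UMIs and 482 CPM in 2-challenge marrow, 991 in 1-challenge marrow and 1067 in Unchallenged at 2000 UMIs or more, so its lower sum in 2-challenge marrow lay in the deeper members. Bach2 was higher in both depth classes, with 323 CPM in 2-challenge marrow, 126 in 1-challenge marrow and 154 in Unchallenged under 2000 UMIs, and 136 CPM in 2-challenge marrow, 58.2 in 1-challenge marrow and 50.7 in Unchallenged at 2000 UMIs or more.

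Interleukin 7 is the cytokine that sustains pro-B cells. Its receptor chain Il7r had 133 CPM in 2-challenge marrow, 179 in 1-challenge marrow and 130 in Unchallenged. In members under 2000 UMIs Il7r was higher in 2-challenge marrow than in Unchallenged, at 300.1 against 233.5 CPM, and in deeper ones lower, at 93.3 against 128 CPM. Mcl1, a survival factor, had 189 CPM in 2-challenge marrow, 109 in 1-challenge marrow and 84.9 in Unchallenged. That was 2.22-fold higher (1.92 to 2.56) in 2-challenge marrow than in Unchallenged. Under 2000 UMIs Mcl1 had 463 CPM in 2-challenge marrow, 179 in 1-challenge marrow and 149 in Unchallenged. In deeper members it had 124 CPM in 2-challenge marrow, 105 in 1-challenge marrow and 83.4 in Unchallenged. There the intervals of 2-challenge marrow and 1-challenge marrow overlapped. Bcl2, another survival factor, had 12.3 CPM on 17 UMIs in 2-challenge marrow, 25.7 in 1-challenge marrow and 21.4 in Unchallenged. The cyclin gene Ccnd2 had 118 CPM in 2-challenge marrow, 86.9 in 1-challenge marrow and 73.9 in Unchallenged, and Ccnd3, the cyclin used by dividing pre-B cells, 355 CPM in 2-challenge marrow, 366 in 1-challenge marrow and 512 in Unchallenged. Of 13 measured genes of the axis 3 were higher and 0 lower in 2-challenge marrow over Unchallenged, where 4.54% of all genes were higher and 12.1% lower, and 0 of 14 passed 1.5-fold in 1-challenge marrow over Unchallenged.

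Surface genes of early B cells were higher after challenge for a few members of the list. Kit, the receptor used for the enrichment, had 41.4 CPM in 2-challenge marrow, 29.1 in 1-challenge marrow and 20 in Unchallenged. Ly6d, which marks B-committed lymphoid progenitors, had 195 CPM in 2-challenge marrow, 231 in 1-challenge marrow and 134 in Unchallenged. Spn (CD43), a pro-B cell marker, had 108 CPM in 2-challenge marrow, 74.3 in 1-challenge marrow and 60.5 in Unchallenged. Cd93 had 145 CPM in 2-challenge marrow, 131 in 1-challenge marrow and 118 in Unchallenged. Of 11 genes 3 were higher and 0 lower in 2-challenge marrow over Unchallenged, where 4.54% of all genes were higher and 12.1% lower. In 1-challenge marrow over Unchallenged 2 were higher and 0 lower, where 1.05% of all genes were higher and 0.758% lower. Of 5 measured genes of later B cells 3 were lower and 0 higher in 2-challenge marrow over Unchallenged. Cd37, a tetraspanin of B cells, had 173 CPM in 2-challenge marrow, 475 in 1-challenge marrow and 457 in Unchallenged, and Cd72 had 49.3 CPM in 2-challenge marrow, 72.7 in 1-challenge marrow and 86.4 in Unchallenged. Light chain Igkc had 48.6 CPM in 2-challenge marrow, 57.9 in 1-challenge marrow and 1204 in Unchallenged, but 10194 of its 11077 UMIs in Unchallenged lay in 1 cell, and without that cell it had 96.0 CPM there.

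Division was read at matched depth. Each member was thinned to 1000 UMIs, which left out 43 members in 2-challenge marrow, 60 in 1-challenge marrow and 44 in Unchallenged, and cells with at least 8 UMIs over 52 genes of S, G2 and M phase were counted, a limit chosen after seeing the data. Such members were 34.4% (29.2 to 39.9%) of 320 in 2-challenge marrow, 28.4% (26.2 to 30.8%) of 1513 in 1-challenge marrow and 41.8% (39.0 to 44.5%) of 1274 in Unchallenged. The interval of 2-challenge marrow overlapped that of 1-challenge marrow and that of Unchallenged, and those of 1-challenge marrow and Unchallenged did not overlap each other. Retnlg neutrophils, which have left the cycle, gave 7.44% in 2-challenge marrow, 10.3% in 1-challenge marrow and 14.5% in Unchallenged as the background. Members with 7 or 8 such UMIs, on either side of the limit, numbered 25 in 2-challenge marrow, 70 in 1-challenge marrow and 70 in Unchallenged. Without thinning the shares were 40.2% in 2-challenge marrow, 48.9% in 1-challenge marrow and 70.6% in Unchallenged. Over the 26 genes of G2 and M phase, 16 were lower and 0 higher in 2-challenge marrow over Unchallenged, with a median log2 ratio of -0.60 beside -0.13 for all genes, and 1 was lower and 0 higher in 1-challenge marrow over Unchallenged (median -0.37). For 1-challenge marrow over Unchallenged 0.758% of all genes were lower and the median of all genes was 0.02. Ccnb1, the mitotic cyclin, had 75.5 CPM in 2-challenge marrow, 106 in 1-challenge marrow and 154 in Unchallenged. Mki67 did not follow, with 238 CPM in 2-challenge marrow, 155 in 1-challenge marrow and 210 in Unchallenged. Over 26 S phase genes the median was -0.22 in 2-challenge marrow over Unchallenged, beside -0.13 for all genes. Of these 26 genes 4 were lower and 0 higher, where 12.1% of all genes were lower and 4.54% higher. Among the lower, Tyms had 83.4 CPM in 2-challenge marrow, 138 in 1-challenge marrow and 184 in Unchallenged. Pcna had 208 CPM in 2-challenge marrow, 154 in 1-challenge marrow and 207 in Unchallenged.

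**Figure D3:**
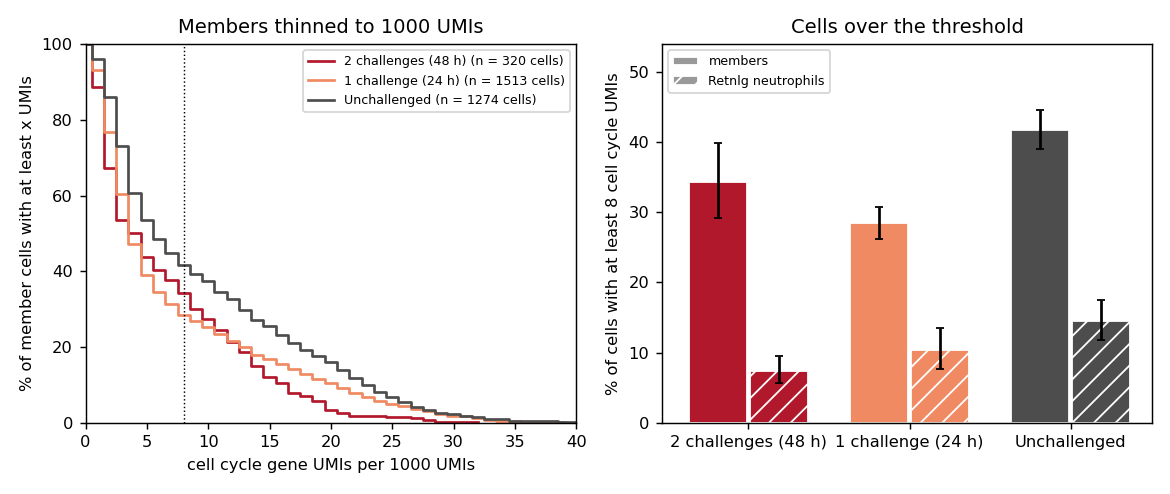
Left, percent of members (y) with at least a given number of UMIs over 52 cell cycle genes (x) after thinning to 1000 UMIs, the dotted line at 8; right, percent of members and of Retnlg neutrophils with at least 8, with exact 95% intervals. Members reached 34.4% in 2-challenge marrow, 28.4% in 1-challenge marrow and 41.8% in Unchallenged, each above the neutrophils of the same library.

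Members above and below this limit differed in the B precursor genes in each library. They were compared at 1000 UMIs with neutrophil-rich members left out. Igll1 averaged 0.961 UMIs in high-cycle members against 2.39 in low-cycle ones in 2-challenge marrow, 1.62 against 3.77 in 1-challenge marrow and 1.71 against 3.61 in Unchallenged. Rag1 averaged 0.194 UMIs in high-cycle members against 1.30 in low-cycle ones in 2-challenge marrow, 0.141 against 0.475 in 1-challenge marrow and 0.0930 against 0.457 in Unchallenged. Igll1, Vpreb1 and Cd79a are genes of the rule, which used counts before thinning, so their lower level per 1000 UMIs in high-cycle members is a description. Before thinning, the median high-cycle member held 9 Igll1 and Vpreb1 UMIs against 9 in low-cycle ones in 2-challenge marrow, 23 against 20 in 1-challenge marrow and 28 against 22.5 in Unchallenged. These medians include the neutrophil-rich members. Among genes the rule did not use, Rag1, Vpreb3, Ebf1 and Dntt were lower per 1000 UMIs in the high-cycle members of all 3 libraries. Il7r had no common direction, at 0.175 UMIs against 0.228 in 2-challenge marrow, 0.296 against 0.301 in 1-challenge marrow and 0.175 against 0.161 in Unchallenged. Ighm was lower in the high-cycle members of all 3 libraries too. It averaged 1.71 UMIs against 1.90 in 2-challenge marrow, 1.54 against 2.11 in 1-challenge marrow and 1.44 against 1.90 in Unchallenged. Ccnd3 was the reverse, at 0.612 UMIs in high-cycle members against 0.208 in low-cycle ones in 2-challenge marrow, 0.563 against 0.232 in 1-challenge marrow and 0.753 against 0.259 in Unchallenged. High-cycle members were also deeper before thinning, with medians of 4471 UMIs against 1404.5 in 2-challenge marrow, 6909 against 2501 in 1-challenge marrow and 8278 against 2812 in Unchallenged. Within the low-cycle members Rag1 was seen in 68.8% of cells in 2-challenge marrow, 34.3% in 1-challenge marrow and 35.0% in Unchallenged. Within the high-cycle members it was seen in 16.5% in 2-challenge marrow, 12.9% in 1-challenge marrow and 8.46% in Unchallenged.

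**Figure D4:**
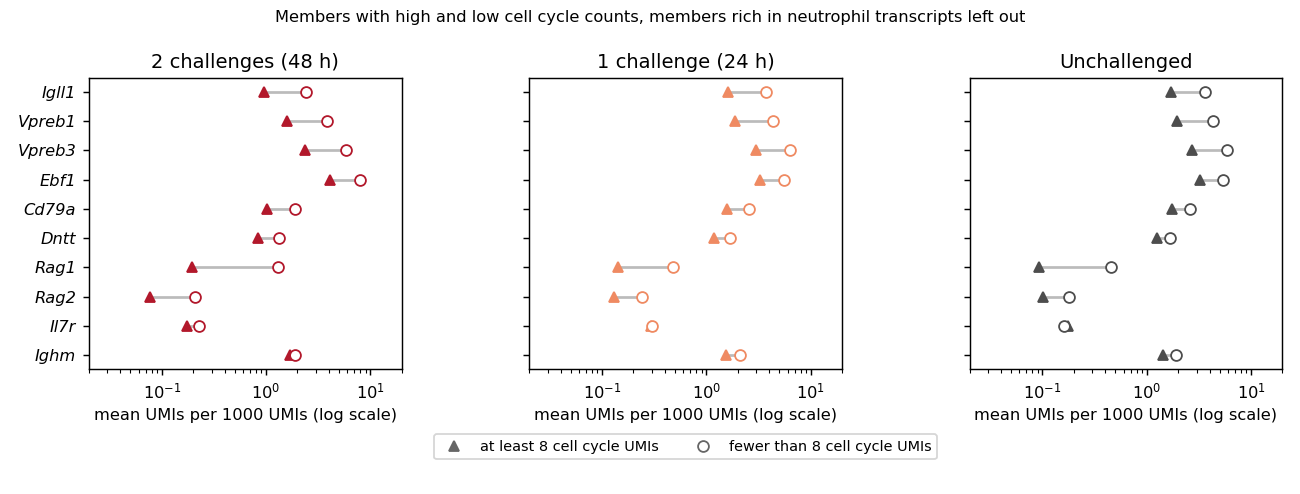
Mean UMIs per 1000 (x, log axis) of 10 genes in members with at least 8 cell cycle UMIs (triangles) and in those with fewer (open circles), 1 panel per library, neutrophil-rich members left out; means over cells of 1 library, with no error across libraries. Igll1, Vpreb1, Vpreb3, Ebf1, Dntt, Rag1 and Rag2 lay lower in the high-cycle members of each library.

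Genes were ranked by how their counts ran with those of the surrogate chain among members. Over 2108 genes seen in at least 5% of thinned members of each library, Spearman's rank correlation with Igll1 plus Vpreb1 was highest for Vpreb3, at 0.62 in 2-challenge marrow (320 cells), 0.59 in 1-challenge marrow (1513) and 0.58 in Unchallenged (1274). Malat1, a nuclear RNA, followed with a mean of 0.56 over the 3 libraries, then Ebf1 (0.46), B2m (0.43), Cd79a (0.39), Mzb1 (0.37), Tifa (0.34), Rps27 (0.33), H2-K1 (0.31) and Dntt (0.31). The lowest values were those of H2afz (-0.47), Tuba1b (-0.43), Stmn1 (-0.41) and Hmgb2 (-0.38), genes of dividing cells. The first 10 thus hold B precursor genes beside broadly expressed ones such as B2m, Rps27 and H2-K1, and Cd79a is a gene of the rule. Cells share their library, their depth of 1000 UMIs and a fixed total over genes, and the values are a description.

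Interferon response genes were lower in 2-challenge marrow than in both other libraries for most of the list. Isg15, a ubiquitin-like protein made under interferon, had 2.90 CPM on 4 UMIs in 2-challenge marrow, 80.9 in 1-challenge marrow and 78.6 in Unchallenged, 27.1-fold lower (10.5 to 99.7) in 2-challenge marrow than in Unchallenged. Irf7, the factor that amplifies interferon, had 5.08 CPM on 7 UMIs in 2-challenge marrow, 84.9 in 1-challenge marrow and 29.9 in Unchallenged. In members under 2000 UMIs, Irf7 had 19.0 CPM on 5 UMIs in 2-challenge marrow, 148 in 1-challenge marrow and 14.0 in Unchallenged. Both genes had few UMIs in 2-challenge marrow, and Irf7 but not Isg15 was higher in 1-challenge marrow than in Unchallenged, by 2.84-fold (2.47 to 3.27). Rtp4 had 17.4 CPM in 2-challenge marrow, 138 in 1-challenge marrow and 98.9 in Unchallenged. Ifi27l2a had 440 CPM in 2-challenge marrow, 1749 in 1-challenge marrow and 1155 in Unchallenged. Bst2, which tethers virus to the membrane, had 84.9 CPM in 2-challenge marrow, 315 in 1-challenge marrow and 174 in Unchallenged. Of 32 genes measured in 1-challenge marrow over Unchallenged, 11 were higher and 0 lower, with a median log2 ratio of 0.37 beside 0.02 for all genes. Of all genes 1.05% were higher and 0.758% lower there. Of 28 measured in 2-challenge marrow over Unchallenged 18 were lower and 1 higher (median -0.81 beside -0.13), and of 30 in 2-challenge marrow over 1-challenge marrow 27 were lower and 0 higher (median -1.09 beside -0.14). Over all genes the shares were 12.1% lower and 4.54% higher against Unchallenged, and 13.4% lower and 3.99% higher against 1-challenge marrow. Without the neutrophil-rich members the medians were 0.46 in 1-challenge marrow over Unchallenged, -0.80 in 2-challenge marrow over Unchallenged and -1.12 in 2-challenge marrow over 1-challenge marrow. In the other cells of the libraries they were 0.33, -0.55 and -0.97 for these comparisons, so the direction was the same outside the members. Ifi27l2a was far higher in members than in other cells, which had 72.0 CPM in 2-challenge marrow, 190 in 1-challenge marrow and 132 in Unchallenged. The difference between members and other cells was not tested.

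A few genes of the group were at or above their Unchallenged level in 2-challenge marrow. Ifitm1, a membrane protein that blocks viral entry, had 134 CPM in 2-challenge marrow, 254 in 1-challenge marrow and 40.9 in Unchallenged, 6.22-fold higher (5.58 to 6.96) in 1-challenge marrow than in Unchallenged. Other cells had more of it, at 496 CPM in 2-challenge marrow, 659 in 1-challenge marrow and 157 in Unchallenged. Ly6a (Sca-1) had 63.8 CPM in 2-challenge marrow, 212 in 1-challenge marrow and 55.0 in Unchallenged, while other cells had 21.8 CPM in 2-challenge marrow, 66.1 in 1-challenge marrow and 24.2 in Unchallenged. Members below 2000 UMIs had 110 CPM of Ly6a in 2-challenge marrow, 110 in 1-challenge marrow and 74.7 in Unchallenged, so the high level in 1-challenge marrow lay in the deeper cells. Of its 31-base words near the 3 prime end, 29.2% occur in other genes. In high-cycle members alone, the log2 ratio of Ifitm1 in 2-challenge marrow over 1-challenge marrow was 0.31, against -0.87 over all members.

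**Figure D5:**
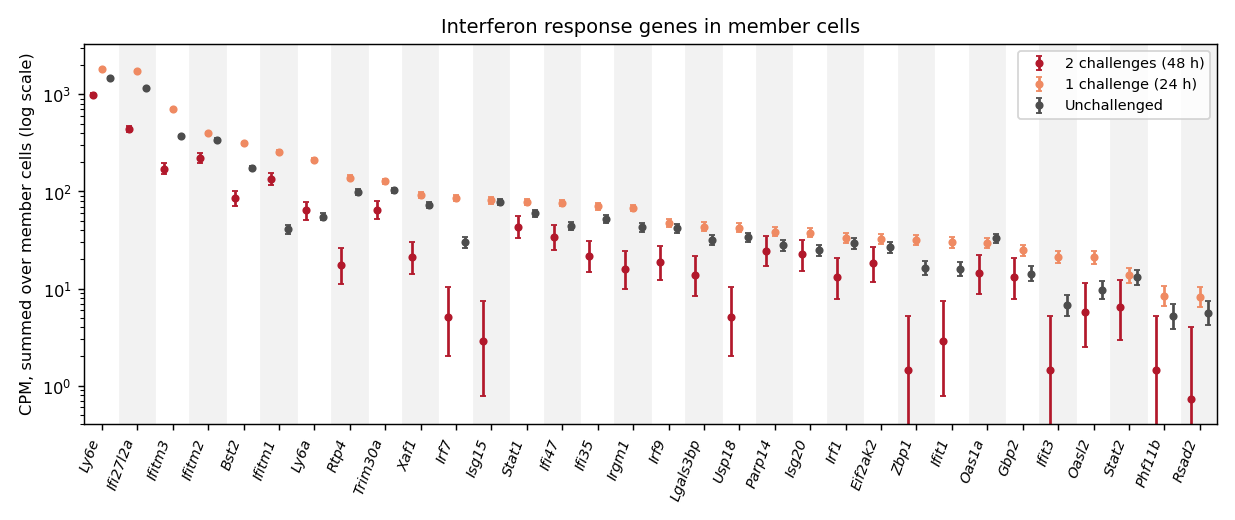
Level in CPM (log axis) of 32 interferon response genes summed over members of each library, in the order of their level in 1-challenge marrow; bars are exact Poisson 95% intervals (counting error only). Most lay lowest in 2-challenge marrow, among them Isg15 at 2.90 CPM, against 80.9 in 1-challenge marrow and 78.6 in Unchallenged.

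Antigen presentation genes followed in part. Of 14 genes of MHC class I, 4 were higher and 0 lower in 1-challenge marrow over Unchallenged (median log2 ratio 0.39), and 6 were lower and 0 higher in 2-challenge marrow over 1-challenge marrow (median -0.50). Of all genes 1.05% were higher and 0.758% lower in 1-challenge marrow over Unchallenged (median 0.02). In 2-challenge marrow over 1-challenge marrow 13.4% of all genes were lower and 3.99% higher (median -0.14). B2m, the shared light subunit, had 2575 CPM in 2-challenge marrow, 4435 in 1-challenge marrow and 3321 in Unchallenged. H2-D1 had 736 CPM in 2-challenge marrow, 1855 in 1-challenge marrow and 1331 in Unchallenged. H2-K1, its sister heavy chain, had 1130 CPM in 2-challenge marrow, 1529 in 1-challenge marrow and 1014 in Unchallenged. Against Unchallenged, the members of 2-challenge marrow were split, with 3 genes higher and 2 lower, where 4.54% of all genes were higher and 12.1% lower. Of 8 measured class II genes 4 were higher and 0 lower in 1-challenge marrow over Unchallenged (median 0.59, or -0.067 with a limit of 2 surrogate chain UMIs). Their chaperone Cd74 had 35.6 CPM in 2-challenge marrow, 57.6 in 1-challenge marrow and 20 in Unchallenged, and its log2 ratio in 1-challenge marrow over Unchallenged, 1.17, was -0.14 with that limit.

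Immediate early genes, switched on within minutes by signals or handling, were lower for 7 of 13 measured and higher for 1 in 2-challenge marrow over 1-challenge marrow (median log2 ratio -0.67), whereas in the other cells the median over these genes was 0.54. Of all genes 13.4% were lower and 3.99% higher in the members in that comparison (median -0.14). The difference between members and other cells was not tested. Jun had 205 CPM in 2-challenge marrow, 512 in 1-challenge marrow and 393 in Unchallenged. Fos had 62.4 CPM in 2-challenge marrow, 134 in 1-challenge marrow and 97.2 in Unchallenged. Jund went the other way, with 612 CPM in 2-challenge marrow, 373 in 1-challenge marrow and 338 in Unchallenged. Of 16 chaperones of the endoplasmic reticulum 3 were higher and 0 lower in 1-challenge marrow over Unchallenged (median 0.36), but without the neutrophil-rich members the median was 0.06 and 0 passed 1.5-fold. Of all genes 1.05% were higher and 0.758% lower in that comparison. With those members left out, 1.08% of 8125 genes were higher and 0.775% lower. Of 24 genes of oxidative phosphorylation 3 were higher and 1 lower in 2-challenge marrow over Unchallenged (median 0.25), among the higher Cox6a1 with 821 CPM in 2-challenge marrow, 425 in 1-challenge marrow and 445 in Unchallenged. For 2-challenge marrow over Unchallenged 4.54% of all genes were higher and 12.1% lower (median -0.13), also the background for the lists that follow. Of 15 measured genes of Myc and ribosome biogenesis 0 passed 1.5-fold in 2-challenge marrow over Unchallenged (median -0.19). Of 11 homing and adhesion genes 2 were higher and 3 lower there, the lower ones including Rac2, a GTPase used in migration, with 324 CPM in 2-challenge marrow, 500 in 1-challenge marrow and 659 in Unchallenged.

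Among the genes with the largest ratios, several were higher in other cells than in members. In 1-challenge marrow over Unchallenged the highest was Wfdc17, with 50.8 CPM in 2-challenge marrow, 111 in 1-challenge marrow and 9.24 in Unchallenged. Other cells held more of it, at 335 CPM in 2-challenge marrow, 231 in 1-challenge marrow and 23.7 in Unchallenged, and without the neutrophil-rich members its log2 ratio was 1.43, against 2.65 with them. Gimap4, a GTPase of lymphocytes, was higher in members than in other cells, with 81.3 CPM in 2-challenge marrow, 102 in 1-challenge marrow and 33.9 in Unchallenged, against 9.22 CPM in 2-challenge marrow, 4.22 in 1-challenge marrow and 1.87 in Unchallenged in other cells. Its log2 ratio in 1-challenge marrow over Unchallenged was 1.36 without the neutrophil-rich members. Serpina3f, a protease inhibitor, had 37.7 CPM in 2-challenge marrow, 42.6 in 1-challenge marrow and 9.13 in Unchallenged, against 0.899 CPM in 2-challenge marrow, 2.41 in 1-challenge marrow and 1.06 in Unchallenged in other cells. Ppp1r21 had 182 CPM in 2-challenge marrow, 195 in 1-challenge marrow and 74.8 in Unchallenged. Against Unchallenged the log2 ratio of Serpina3f in 2-challenge marrow was 1.32, or -0.43 when members were thinned to 2000 UMIs, and that of Ppp1r21 was 1.18, or -0.31 when thinned.

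The lowest ratios of both challenged libraries over Unchallenged were those of Igkc and Jchain, and several neutrophil granule genes were among the next. Camp, a granule peptide gene, had 2013 CPM in 2-challenge marrow, 1720 in 1-challenge marrow and 7584 in Unchallenged. Other cells had 9102 CPM in 2-challenge marrow, 5275 in 1-challenge marrow and 27040 in Unchallenged. Jchain, a plasma cell gene, had 2.18 CPM in 2-challenge marrow, 1.33 in 1-challenge marrow and 183 in Unchallenged, where 1 member held 1674 UMIs over the 5 plasma cell genes. Basophil genes had the highest ratios over Unchallenged in 2-challenge marrow: Prss34 had 100 CPM in 2-challenge marrow, 8.98 in 1-challenge marrow and 4.13 in Unchallenged, and 259 of the 299 UMIs of the 5 basophil and mast cell genes there lay in 1 member. Hist1h2ap had the largest ratio in 2-challenge marrow over 1-challenge marrow, with 3133 CPM in 2-challenge marrow, 320 in 1-challenge marrow and 1351 in Unchallenged. Other cells had 1678 CPM in 2-challenge marrow, 177 in 1-challenge marrow and 639 in Unchallenged, and every 31-base word of its last 300 bases occurs in other genes, so its reads cannot be placed with certainty.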

How the data were processed

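Gene counts were deposited by the authors as 1 table of UMI counts per library, made with Cell Ranger 3.0.0 and mm10 per the submitters' processing notes; the aligner settings and annotation are not given in the sources used here, and no normalization was applied to the deposited counts. No column of other samples was present. Cells were filtered as given above, member UMIs were summed per library with numpy 2.4.6, and intervals for shares and summed counts were computed with scipy 1.17.1. Intervals and floors cover counting error only, and PCR duplicates were removed by UMI. With 1 library per group no test was run, and a 1.5-fold difference is a rule of size. Doublets were marked with Scrublet in scanpy 1.11.5 (expected rate 6%) and kept, with an alternative without them. The computation was tested on simulated data with known folds. Genes were named from the 10 highest and 10 lowest ratios of each comparison (without ribosomal, mitochondrial, immunoglobulin, T cell receptor, haemoglobin and predicted genes), up to 4 of the largest ratios in each list, and a set of B precursor genes whatever their values; Igkc and the remaining list members named were chosen after their values were seen. Members, gene lists and limits were chosen with earlier results of these data known. Alternatives changed the cell filter, the surrogate chain limit, the scaling, the added CPM, the minimum of counts, thinning and the cells left out. Results on a few genes are not reported here.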

Additional observations from a re-analysis of the deposited data

How the results depend on the processing

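No paired analysis was possible because each group was 1 library and the labels give no replicate numbers; for the same reason no replicate could be left out. The share of members changed most with the rule and the denominator. A limit of 2 surrogate chain UMIs gave 4.80% in 2-challenge marrow, 19.4% in 1-challenge marrow and 15.6% in Unchallenged, and a limit of 8 gave 2.53% in 2-challenge marrow and 16.9% in 1-challenge marrow. Leaving out neutrophil-rich members gave 17.2% in 1-challenge marrow and 13.01% in Unchallenged, and leaving out Scrublet calls 13.6% in Unchallenged. The rule after thinning to 2000 UMIs gave 1.05%, 13.1% and 10.9%, and cells with at most 5% neutrophil granule UMIs 6.36%, 23.4% and 27.7%, for 2-challenge marrow, 1-challenge marrow and Unchallenged. The number of genes past 1.5-fold in 1-challenge marrow over Unchallenged, 157, was 70 in high-cycle members, 387 with 1 CPM added and 74 at a mean of 50 CPM or more. For 2-challenge marrow over Unchallenged, 1218 became 726 after thinning to 1000 UMIs, 435 in low-cycle members, 300 in high-cycle members, 2200 with 1 CPM added and 566 at 50 CPM. For 2-challenge marrow over 1-challenge marrow, 1285 became 815, 688, 235, 2253 and 551 under the same settings. Some log2 ratios that passed 1.5-fold changed sign. Sign changes of smaller ratios are not listed. With a limit of 2 surrogate chain UMIs, the MHC class II median was -0.067 and Cd74 -0.14 in 1-challenge marrow over Unchallenged, and Cd74 -0.14 in 2-challenge marrow over Unchallenged. Between 2-challenge marrow and Unchallenged, thinning to 2000 UMIs gave Serpina3f -0.43 and Ppp1r21 -0.31, and thinning to 1000 UMIs gave Prtn3 -0.15. Low-cycle members gave Cd74 -0.25 and Prtn3 -0.43 there, and high-cycle members Serpina3f -0.96, Jchain 1.03, Igkc 0.39 and Polr2l -0.042. In 2-challenge marrow over 1-challenge marrow, Rag1 was -0.078 after thinning to 2000 UMIs, Bcl2 0.18 in low-cycle members, and Ifitm1 0.31 and Wfdc17 0.55 in high-cycle members. The cause was not tested. Of the other recomputed gene values 2304 moved by less than their counting interval and 909 by more, sign changes of smaller ratios among them. Of 144 gene and list values past 1.5-fold, 34 fell under it in low-cycle members and 26 in high-cycle members. After thinning to 2000 UMIs 23 of the 144 did.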
